A study of Mus musculus with 17 samples.

Results

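Translational efficiency, the ratio of ribosome footprints to RNA of the same gene, was compared between Msi2 knockdown and control mouse keratinocytes. The comparison used 12 of the 17 libraries of the study, namely 3 footprint and 3 RNA libraries of knockdown cells and the same numbers of control cells. Genes of the footprint and RNA tables were joined by symbol, and 10821 of 20572 genes had enough counts to be tested. Efficiency change was taken from the interaction term of the fit, that is, the log2 footprint change minus the log2 RNA change, knockdown over control. By edgeR's quasi-likelihood test 22 genes (0.203%) were called at a Benjamini-Hochberg adjusted p under 0.05, of which 14 (0.129%) had higher and 8 (0.0739%) had lower efficiency in knockdown cells. Higher calls held Rpl23, 1 of 78 tested cytosolic ribosomal proteins, and Mrpl21, 1 of 76 of the mitochondrial ribosome. They also held Eef1b2 and Eif1ax, 2 of 53 translation initiation and elongation factors. The lower calls were led by the kinase gene Mapk6, the linker histone gene Hist1h1c and Fam199x. RNA of Hist1h1c was measured in polyadenylated form alone. With 1 library left out at a time, the call held in 5, 3, 2 and 2 of 12 fits for Rpl23, Eef1b2, Eif1ax and Mrpl21. It held in 9, 9 and 8 of 12 for Mapk6, Hist1h1c and Fam199x.

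The cells were C57BL/6 keratinocytes from neonatal skin that had become immortal spontaneously. They were grown for 3 passages on NIH-3T3 J2 fibroblasts treated with mitomycin-C, and on uncoated dishes after that. Knockdown cells carried a lentiviral short hairpin RNA against Msi2 and control cells one with a scrambled sequence, and both were selected with puromycin at 2 ug/ml, added 2 days after infection and kept for 2 days. Footprints were taken from cells treated briefly with cycloheximide, which arrests ribosomes, and RNA libraries were made from polyadenylated RNA with a stranded kit. The other 5 libraries are HITS-CLIP, in which ultraviolet light joins Msi2 to the RNA it touches, and they are used here only through their peak lists. All libraries came from a single immortalized population, and the labels name no hairpin sequence. The labels do not say whether libraries of 1 group stem from separate cultures. The p-values therefore reflect only how far these libraries vary, which could be technical variation.

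Cells can alter how much protein an mRNA gives without altering its amount, by changing how often ribosomes start on it or how fast they move. When RNA and footprints change by the same factor the ratio stays as it was. When the RNA changes and the footprints follow less, the change is said to be buffered, and when footprints change further than RNA it is intensified. Musashi proteins bind short motifs in 3' untranslated regions and are known to repress or to raise the translation of their targets, with Numb as the classic repressed target of Musashi-1.

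Msi2, the gene targeted by the hairpin, had 4.35, 0 and 4.83 CPM (counts scaled to library size) of footprints in the knockdown libraries, against 16.0, 15.9 and 16.7 CPM in the control libraries. Its RNA over the coding sequence was 6.95, 6.84 and 5.40 CPM in knockdown libraries and 6.92, 7.10 and 9.39 CPM in control libraries. The footprint groups did not overlap and the RNA groups did. On the log2 scale its footprints fell by 2.09 (adjusted p = 0.000628), its RNA differed by -0.29 (adjusted p = 0.289), and the difference in efficiency, -1.79 ± 0.48 (SE), missed the threshold with an adjusted p of 0.117. The footprint values rest on 14 counts in all knockdown libraries and 102 in all control libraries. Msi1 had too few counts to be tested.

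Footprint libraries held 512256 to 2069440 gene counts in knockdown cells and 702602 to 2959625 in control cells, and RNA libraries 9221566 to 26785876 in knockdown cells and 11291571 to 24931967 in control cells. All 15 keratinocyte markers were tested, and their summed level was 27280 to 28760 CPM of footprints in knockdown libraries and 27190 to 30200 CPM in control libraries. Their summed RNA did not overlap, at 18510 to 20100 CPM in knockdown libraries and 21190 to 24980 CPM in control libraries. The summed level of 15 fibroblast markers was 36.2 to 49.4 CPM of footprints in knockdown libraries and 20.5 to 29.9 CPM in control libraries, with 4 of the 15 at 0 in all 12 libraries. Their RNA was 27.1 to 30.2 CPM in knockdown libraries and 19.0 to 21.9 CPM in control libraries, and that of 10 endothelium and muscle markers 10.1 to 14.3 CPM in knockdown libraries and 5.18 to 6.63 CPM in control libraries. RNA of 10 immune cell markers summed to 14.7 to 21.7 CPM in knockdown libraries and 23.4 to 24.8 CPM in control libraries. Markers of melanocytes, immune cells, and endothelium and muscle summed to at most 49.8 CPM of footprints in any library, and Mitf of melanocytes had 0 footprint counts in knockdown libraries and 18 in control libraries. In such bulk libraries fewer cells of a type and less RNA per cell cannot be told apart, and the part of these markers in the results was not tested. In RNA libraries, reads that aligned to several places made up 21.8 ± 2.45% in knockdown cells and 15.2 ± 2.01% in control cells (SD, n = 3 each). Such reads are not in the gene counts, and what they contribute was not tested.

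Across genes, footprints followed RNA. In the same fit RNA was called in 4817 genes (44.5%) and footprints in 1415 (13.1%), and Pearson's r between the RNA and the footprint change was 0.61 over the 10821 genes, which are not independent replicates. Both were higher in 618 genes and both lower in 524, whereas RNA was lower with footprints higher in 4 genes and RNA higher with footprints lower in 5. A further 175 genes were called higher and 89 lower in footprints with no RNA call. Among 521 genes with RNA called higher and a log2 change of 1 or more, the median RNA change was 1.26 and the median footprint change 0.95, with the same sign in 91.2%. For the 363 genes with RNA called lower and a log2 change of -1 or less, the medians were -1.37 for RNA and -1.26 for footprints, with the same sign in 95.9%. These groups were sorted on the RNA change, which enters the efficiency, so their medians are a description. A gene's efficiency change had a median SE of 0.28 on the log2 scale, against 0.15 for the RNA change and 0.23 for the footprint change.

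The 22 called genes were sorted by the same contrasts, again as a description. In 10 genes the RNA change was called and the footprint change was not (buffered), in 6 both were called with opposite signs (opposite), and in 6 footprints alone were called. Buffered genes include those whose uncalled footprint change had the other sign from RNA, which held for all of them but Emc1. No called gene was intensified. The called genes nearest the threshold were Mrpl21, Zfp652 and 1500012F01Rik (adjusted p = 0.0496 each), and just outside it stood Derl1, Magohb and Macf1 (0.0506 each), with log2 changes of 0.80, 1.04 and 0.88.

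**Figure D1:**
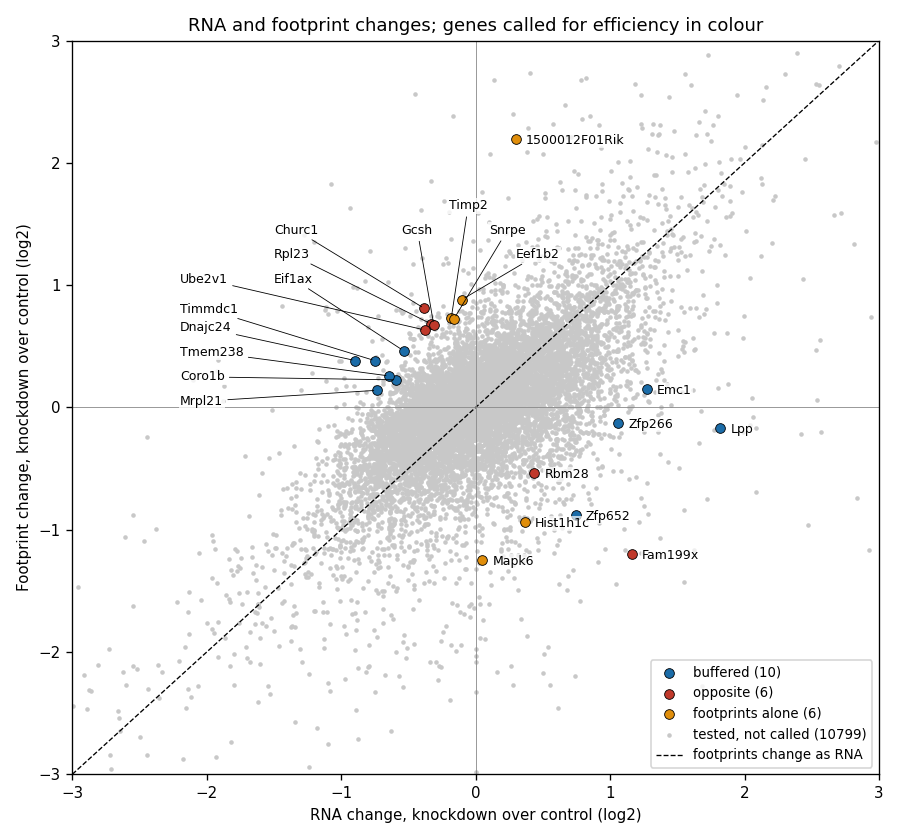
Log2 change of RNA (horizontal) against log2 change of footprints (vertical), knockdown over control, for each of the tested genes, with the 22 genes called for efficiency in colour by pattern and equal changes on the dashed line. Genes called higher in efficiency lie above the dashed line and those called lower below it, and 131 genes lie outside the axes of ±3.

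Scaling changed the balance of the 2 directions. With upper-quartile factors in place of TMM factors 5 genes were called higher and 13 lower, with 13 of the 22 genes among them, and with RLE factors 11 and 13, with 19 of the 22 among them. The median efficiency change over all genes was 0.02 with TMM, -0.03 with RLE and -0.05 with upper-quartile factors. Single libraries decided the number of calls. By the same edgeR test no gene was called without the first control footprint library, where 638 genes were higher and 480 lower at an unadjusted p under 0.05, or without the third knockdown RNA library, where 416 were higher and 771 lower. Without the third and the first knockdown footprint library 1 and 2 genes were called. The number was 5 to 13 without the third control footprint library, the first or second knockdown RNA library, or the first or second control RNA library, and 243 without the third control RNA library. The main fit had no replicate block, since the labels do not say whether numbers pair libraries. With a block joining the RNA and footprint library of a group and number, 246 genes were called higher and 107 lower. A block within each assay left 1 higher and 2 lower.

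Among genes of the translation machinery, Rpl23 encodes a protein of the large ribosomal subunit (chromosome 11, 97777526 to 97782439, mm10). It had 2384, 2061 and 2226 CPM of footprints in knockdown libraries, against 1392, 1511 and 1247 CPM in control libraries. Its RNA stood at 3127, 3266 and 3269 CPM in knockdown libraries, against 4080, 4621 and 3474 CPM in control libraries. Every knockdown library was above every control library in footprints and below every one in RNA. Efficiency rose by 1.02 ± 0.19 on the log2 scale (SE, adjusted p = 0.0208). The footprint change was 0.68 and the RNA change -0.33, an opposite pattern with the RNA call near the threshold (adjusted p = 0.0424). Eef1b2, a nucleotide exchange subunit of elongation factor eEF1 (chromosome 1, 63176831 to 63180486), had 2168, 1512 and 1965 CPM of footprints in knockdown libraries and 936, 1052 and 1088 CPM in control libraries. Its RNA groups overlapped, at 2489 to 2746 CPM in knockdown libraries and 2523 to 3216 CPM in control libraries. Footprints alone were called, and efficiency rose by 0.98 ± 0.20 (adjusted p = 0.0336).

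Eif1ax, an initiation factor that helps the small subunit find the start codon, and Mrpl21, a protein of the mitochondrial ribosome, were buffered. Eif1ax (chromosome X, 159372178 to 159389621) had 150, 121 and 131 CPM of footprints in knockdown libraries, against 113, 92.0 and 88.8 CPM in control libraries. Its RNA was 133, 102 and 135 CPM in knockdown libraries and 209, 188 and 139 CPM in control libraries, so that neither measure overlapped between the groups. The RNA change of Eif1ax was -0.54 on the log2 scale. Its footprint change of 0.46 had the other sign and was not called (adjusted p = 0.0626). Its efficiency rose by 1.00 ± 0.22 (adjusted p = 0.0382). For Mrpl21 (chromosome 19, 3282997 to 3292837), RNA was 64.8, 59.9 and 62.7 CPM in knockdown libraries, against 113, 110 and 87.8 CPM in control libraries. Footprints of Mrpl21 overlapped between the groups, with 82.1 to 91.5 CPM in knockdown libraries and 68.2 to 89.5 CPM in control libraries. Mrpl21 RNA thus fell by 0.73 while footprints differed by 0.14 (adjusted p = 0.624), and its efficiency rose by 0.87 ± 0.20 (adjusted p = 0.0496).

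Timmdc1, Gcsh, Ube2v1, Dnajc24 and Emc1 are placed together only by the role of their proteins, in mitochondria or in protein handling. Timmdc1 (chromosome 16, 38497843 to 38522778), an assembly factor of respiratory complex I, had 41.5, 46.3 and 43.3 CPM of RNA in knockdown libraries, against 77.4, 72.4 and 70.0 CPM in control libraries. Its footprints overlapped, at 20.1 to 27.0 CPM in knockdown libraries and 18.5 to 23.2 CPM in control libraries, and efficiency rose by 1.13 ± 0.24 (adjusted p = 0.0382). Gcsh, a subunit of the glycine cleavage system of mitochondria (chromosome 8, 116981967 to 116993498), and Ube2v1, a ubiquitin-conjugating enzyme variant (chromosome 2, 167607639 to 167632020), followed the opposite pattern. Gcsh footprints were 71.4 to 85.0 CPM in knockdown libraries and 41.2 to 57.8 CPM in control libraries, and efficiency rose by 0.99 ± 0.21 (adjusted p = 0.0382). Gcsh RNA was 62.1 to 76.5 CPM in knockdown libraries and 76.6 to 102 CPM in control libraries. Its change of -0.31 was called near the threshold (adjusted p = 0.0474). Ube2v1 footprints were 78.7 to 133 CPM in knockdown libraries and 56.6 to 75.2 CPM in control libraries, and efficiency rose by 1.01 ± 0.21 (adjusted p = 0.0336).

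Dnajc24, a J-domain protein of diphthamide synthesis, was buffered with the largest rise of this group, 1.28 ± 0.28 (adjusted p = 0.0382; chromosome 2, 105966708 to 106003549). Its RNA fell by 0.89 on the log2 scale, to 9.60, 8.55 and 10.3 CPM in knockdown libraries, against 19.1, 18.9 and 14.9 CPM in control libraries. Dnajc24 footprints were 30.9, 27.5 and 30.9 CPM in knockdown libraries, against 21.3, 26.4 and 19.3 CPM in control libraries. Their change of 0.38 had the other sign from RNA and was not called (adjusted p = 0.292). Emc1 went the other way. It encodes a subunit of the complex that inserts membrane proteins into the endoplasmic reticulum (chromosome 4, 139352587 to 139378735), and its RNA was 18.6, 18.1 and 19.8 CPM in knockdown libraries, against 8.83, 5.93 and 9.02 CPM in control libraries. Emc1 footprints overlapped, at 91.5 to 103 CPM in knockdown libraries and 81.9 to 106 CPM in control libraries, so that efficiency fell by 1.12 (SE 0.23, adjusted p = 0.0336).

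Snrpe and Rbm28, both proteins of RNA processing, were called in different directions. Snrpe, a core protein of spliceosomal particles (chromosome 1, 133603871 to 133610280), had 254 to 323 CPM of footprints in knockdown libraries and 172 to 196 CPM in control libraries with overlapping RNA, and its efficiency rose by 0.89 ± 0.20 (adjusted p = 0.0439). Rbm28, a nucleolar RNA-binding protein (chromosome 6, 29123573 to 29164724), had 58.4, 58.6 and 48.3 CPM of footprints in knockdown libraries, against 95.5, 72.0 and 68.2 CPM in control libraries. In RNA, Rbm28 stood at 113, 118 and 120 CPM in knockdown libraries and 93.8, 86.2 and 79.3 CPM in control libraries. Neither assay overlapped, the signs were opposite, and efficiency fell by 0.97 (SE 0.20, adjusted p = 0.0336).

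Zinc finger genes Zfp266 and Zfp652 were both lower and buffered. Zfp266 (chromosome 9, 20495068 to 20521419) had RNA of 23.8, 25.7 and 25.7 CPM in knockdown libraries, against 10.2, 12.8 and 13.2 CPM in control libraries. Its footprints were close, at 44.4, 45.8 and 43.5 CPM in knockdown libraries and 46.3, 47.8 and 54.1 CPM in control libraries, and efficiency fell by 1.19 (SE 0.23, adjusted p = 0.0268). Zfp652 (chromosome 11, 95749067 to 95764715) rests on 22 footprint counts in knockdown libraries and 70 in control libraries, and efficiency fell by 1.63 (SE 0.37, adjusted p = 0.0496). Its RNA change was 0.74 on the log2 scale, and its footprint change of -0.88 went the other way without a call (adjusted p = 0.083). Churc1, a small zinc-binding protein (chromosome 12, 76765538 to 76783180), followed the opposite pattern with 66.2, 101 and 68.6 CPM of footprints in knockdown libraries, against 43.1, 43.3 and 41.2 CPM in control libraries. Efficiency of Churc1 rose by 1.19 ± 0.25 (adjusted p = 0.0336), while its RNA groups overlapped, at 23.1 to 25.4 CPM in knockdown libraries and 23.8 to 37.7 CPM in control libraries. Its RNA change of -0.38 was called near the threshold (adjusted p = 0.0395).

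Coro1b, Timp2 and Lpp are likewise placed together only by role, in the cytoskeleton, matrix and focal adhesions. Coro1b, an actin-binding coronin of the leading edge of moving cells (chromosome 19, 4148611 to 4154035), had 226, 233 and 239 CPM of RNA in knockdown libraries, against 361, 353 and 335 CPM in control libraries. Its footprints were 506, 439 and 474 CPM in knockdown libraries and 434, 405 and 376 CPM in control libraries. RNA fell by 0.59 on the log2 scale with no call in footprints (0.23, adjusted p = 0.249), and efficiency rose by 0.81 ± 0.17 (adjusted p = 0.0336). Timp2, a secreted inhibitor of matrix metalloproteinases (chromosome 11, 118301061 to 118355411), had 157, 185 and 156 CPM of footprints in knockdown libraries, against 99.6, 106 and 84.9 CPM in control libraries. The RNA groups of Timp2 overlapped, and efficiency rose by 0.91 ± 0.19 (adjusted p = 0.0336). Lpp, a focal adhesion protein with LIM domains (chromosome 16, 24393350 to 24992578), had overlapping footprints of 74.4 to 84.2 CPM in knockdown libraries and 78.7 to 96.5 CPM in control libraries. Lpp RNA was only 2.98, 1.62 and 1.87 CPM in knockdown libraries, or 93 counts, against 0.109, 0.794 and 0.911 CPM, or 29 counts, in control libraries. The fall of 1.99 in efficiency (SE 0.41, adjusted p = 0.0336) therefore rests on few RNA reads.

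Mapk6 encodes the kinase ERK3, an atypical member of the MAP kinase family (chromosome 9, 75386782 to 75410016). Its footprints were 78.7, 36.6 and 98.5 CPM in knockdown libraries, against 196, 155 and 193 CPM in control libraries, whereas RNA was 368, 339 and 364 CPM in knockdown libraries and 350, 316 and 369 CPM in control libraries. Footprints did not overlap between the groups and RNA did. The footprint change was -1.25 on the log2 scale, the RNA change 0.05 (adjusted p = 0.806), and efficiency fell by 1.30 (SE 0.23, adjusted p = 0.0146). Mapk6 and Hist1h1c were the called genes found under all 13 other settings and in 9 of 12 fits that left out a library. Among the settings is a required log2 change of at least 1, whose outcome follows from the main fit. Adjusted p-values in the tests of all 25 alternatives were 1.44e-07 to 0.0793 for Mapk6 and 2.27e-06 to 0.0829 for Hist1h1c.

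Hist1h1c, which RefSeq now lists as H1f2, encodes a linker histone (chromosome 13, 23738807 to 23739531). It had 697, 509 and 649 CPM of footprints in knockdown libraries, against 1258, 1125 and 1203 CPM in control libraries. RNA of Hist1h1c was 4.85, 7.18 and 7.03 CPM in knockdown libraries and 4.25, 6.26 and 4.37 CPM in control libraries. Footprints were apart between the groups while RNA overlapped, and the ratio of footprints to this RNA fell by 1.30 (SE 0.24, adjusted p = 0.0146). Messages of replication-dependent histones end in a stem-loop in place of a poly(A) tail, and the RNA libraries were made from polyadenylated RNA. The RNA value therefore covers polyadenylated histone message alone. A change in total histone message and a change in its translation cannot be told apart here.

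Fam199x, Tmem238 and 1500012F01Rik complete the set. Fam199x and 1500012F01Rik fall outside the rule for naming genes and are named after their values were seen, so that every called gene is given. Fam199x (chromosome X, 137049594 to 137082503) had 18.4, 22.0 and 15.5 CPM of footprints in knockdown libraries, against 37.3, 45.2 and 42.5 CPM in control libraries. With RNA of 1.77, 1.03 and 1.51 CPM in knockdown libraries, or 66 counts, and 0.545, 0.654 and 0.729 CPM, or 32 counts, in control libraries, its signs were opposite. Efficiency of Fam199x fell by 2.36 (SE 0.42, adjusted p = 0.0146), the largest size among the 22 genes. Tmem238, a small membrane protein gene (chromosome 7, 4784785 to 4789560), was buffered and rose by 0.90 ± 0.20 (adjusted p = 0.0439). 1500012F01Rik (chromosome 2, 167062934 to 167065862), listed by RefSeq as Zfas1, a host of small nucleolar RNAs, had 43.0, 65.9 and 78.2 CPM of footprints in knockdown libraries and 8.61, 12.4 and 25.7 CPM in control libraries. Its ratio of footprints to RNA rose by 1.89 ± 0.38 (adjusted p = 0.0496), on 206 footprint counts in knockdown libraries and 80 in control libraries. Whether these footprints come from translation was not tested.

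**Figure D2:**
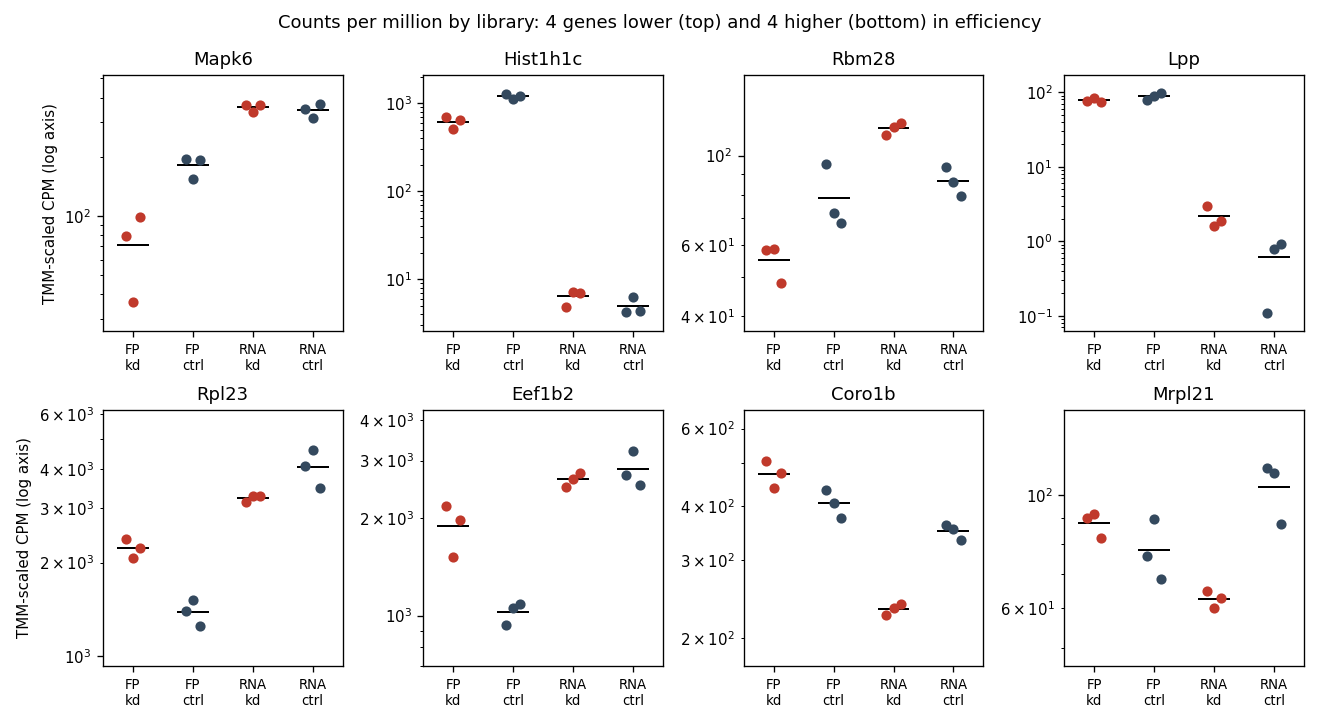
TMM-scaled CPM on a log axis in each library for genes lower (top) and higher (bottom) in efficiency, with footprints (FP) and RNA of knockdown (kd, red) and control (ctrl, dark blue) cells side by side and the mean as a bar. In Mapk6 and Hist1h1c the footprint groups stand apart and RNA overlaps, whereas in Coro1b and Mrpl21 the RNA groups stand apart.

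Non-overlapping groups were common in the whole set, at 53.3% of tested genes in RNA and 28.4% in footprints. Rpl23, Eef1b2 and Snrpe have processed copies elsewhere in the mouse genome and histone genes resemble one another closely, so their reads may be shared and their values are uncertain. Whether counting used strand is not given in the sources used here. Signs of the 22 genes held in all 25 alternatives, although the call did not. The alternatives reuse the libraries in which the genes were called, so held signs are no independent support. Tmem238 was called in 5, Mrpl21 in 6, and Timp2, Gcsh, Snrpe, Dnajc24 and 1500012F01Rik in 7 of the 13 other settings. Requiring a log2 change of at least 1 is among these settings, and its outcome follows from the size of the change in the main fit.

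**Figure D3:**
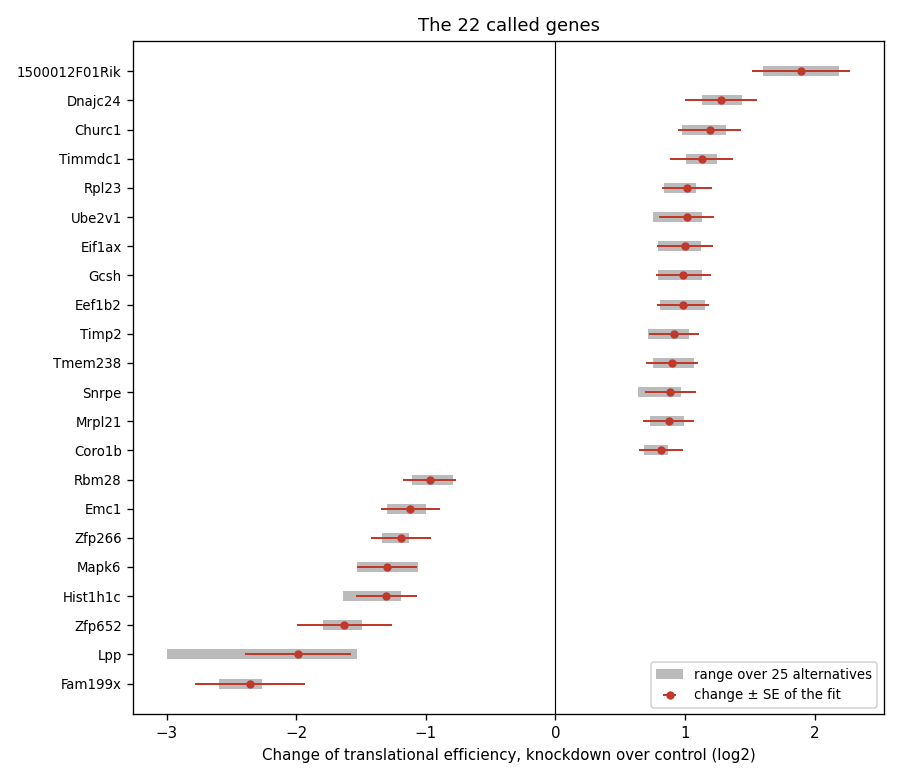
Log2 change of translational efficiency, knockdown over control, of the 22 called genes (point, with the SE of the fit as a line). Grey shows the range of the same value over 25 alternatives, which share libraries with the main fit. No range crosses 0, and Lpp has the widest, from -2.99 to -1.53.

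Members of whole pathways were counted next, beside all tested genes, of which 756 (6.99%) had an unadjusted p under 0.05 with higher and 544 (5.03%) with lower efficiency, and whose median change was 0.02. Respiratory chain subunits encoded in the nucleus had the highest median of the lists counted. Of 77 tested, none passed the adjusted test, 39 had an unadjusted p under 0.05 with higher efficiency and 0 with lower, and 76 had a positive value. The median was 0.45 for efficiency, -0.58 for RNA and -0.13 for footprints, and RNA was called lower in 63 of 77 (22.4% of all genes) but footprints in 4 (5.71% of all genes). Cox4i1, a subunit of cytochrome c oxidase, had 809, 645 and 744 CPM of RNA in knockdown libraries, against 1252, 1335 and 1010 CPM in control libraries. Its footprints overlapped, at 698, 729 and 672 CPM in knockdown libraries and 615, 775 and 641 CPM in control libraries, and the efficiency change of 0.75 ± 0.19 missed the threshold (adjusted p = 0.0888). Atp5k, a subunit of ATP synthase, differed by 0.98 ± 0.24 (adjusted p = 0.0807).

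Mitochondrial ribosomal proteins and proteasome subunits were similar in form. The 76 mitochondrial ribosomal proteins held 1 higher call (Mrpl21) and 0 lower, 24 and 0 at the unadjusted p, with medians of 0.35 for efficiency, -0.48 for RNA and -0.14 for footprints. In RNA 57 of them were called lower, against 22.4% of all genes. Mrpl33, a protein of the large subunit of that ribosome, had 151, 143 and 143 CPM of footprints in knockdown libraries and 93.5, 103 and 90.1 CPM in control libraries, with an efficiency change of 0.85 ± 0.20 (adjusted p = 0.0551). Among 39 proteasome subunits none was called, 8 were higher and 0 lower at the unadjusted p, and 38 were positive. Their medians were 0.31 for efficiency, -0.44 for RNA and -0.10 for footprints. Psmb3, a subunit of the 20S core, illustrates the size, with 0.55 ± 0.20 (adjusted p = 0.252).

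In cytosolic ribosomal proteins the footprint median lay above 0. Of 78 tested, 1 was called higher (Rpl23) and 0 lower, and 27 were higher and 1 lower at the unadjusted p. Median changes were 0.34 for efficiency, -0.20 for RNA and 0.15 for footprints, with RNA called lower in 22 (22.4% of all genes) and footprints called higher in 9 (7.37% of all genes) and lower in 0. With the trend of each library with gene span removed, the medians were 0.00 for RNA and 0.23 for footprints. RNA reads that aligned to several places are not in these counts, and their part in the values of this list was not tested. Rps9, of the small subunit, had 2039, 2043 and 1872 CPM of footprints in knockdown libraries, against 1549, 1659 and 1573 CPM in control libraries, and an efficiency change of 0.81 ± 0.19 (adjusted p = 0.0535). The 53 translation initiation and elongation factors held 2 higher calls (Eef1b2 and Eif1ax) and 0 lower, with a median efficiency change of 0.21. These medians kept their sign in each of 25 alternatives, with ranges of 0.24 to 0.47 for the respiratory chain, 0.18 to 0.40 for mitochondrial ribosomal proteins, 0.16 to 0.35 for the proteasome, 0.16 to 0.44 for cytosolic ribosomal proteins and 0.0742 to 0.275 for the initiation and elongation factors. The lowest values came without the second control RNA library, and for the proteasome without the second knockdown RNA library. In these fits the median over all tested genes was -0.05, against 0.02 in the main fit.

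Replication-dependent histones were lower in footprints. Of 51 tested, 1 was called lower (Hist1h1c) and 0 higher, and 9 were lower and 0 higher at the unadjusted p. Footprints were called lower in 21 and higher in 0, with a median footprint change of -0.58 (5.71% of all genes were called lower). RNA counts behind this list are few, with 32 of the 51 genes under 10 RNA counts in a group and 8 of them at none. The median efficiency change was -0.63, and -0.59 with the genes that had no RNA in a group set to their bound at 3 counts, and with so few RNA reads it is given only as a description. Hist1h1a, another linker histone, had 614, 478 and 619 CPM of footprints in knockdown libraries, against 846, 760 and 826 CPM in control libraries, beside 35 RNA counts in knockdown libraries and 13 in control libraries. Its efficiency change was -2.01 ± 0.47 (adjusted p = 0.0535).

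Lists of protein folding, redox and amino acid genes gave no call. The list of NRF2, glutathione and redox genes had a median of 0.27 over 29 tested, with 9 higher and 2 lower at the unadjusted p. Txn1, thioredoxin, differed by 0.79 ± 0.21 (adjusted p = 0.114), and Sod2, the mitochondrial superoxide dismutase, by 0.77 ± 0.22 (adjusted p = 0.138). Median efficiency changes were 0.22 for 30 heat shock chaperones, 0.19 for 38 genes of endoplasmic reticulum chaperones and protein export, 0.22 for 16 selenoproteins and 0.18 for 37 aminoacyl-tRNA synthetases. At the unadjusted p, 5 heat shock chaperones were higher and 1 lower, 8 and 0 of the endoplasmic reticulum genes, 3 and 0 of the selenoproteins and 2 and 0 of the synthetases. These medians fell to 0.08 for heat shock chaperones without the second knockdown RNA library, 0.06 for the endoplasmic reticulum genes without the second control RNA library and 0.05 for the synthetases without the first knockdown RNA library. The median over all tested genes moved too, from 0.02 in the main fit to -0.05, -0.05 and -0.06 in these fits. For the selenoproteins the lowest was 0.08, with the filter passed within each assay, and for the redox list 0.11, without the third knockdown RNA library. Over all tested genes the median was -0.06 in each of these fits. P4hb, protein disulfide isomerase, had 1138, 1073 and 1107 CPM of footprints in knockdown libraries, against 676, 855 and 685 CPM in control libraries, with overlapping RNA and an efficiency change of 0.64 ± 0.18 (adjusted p = 0.137). In ATF4 target genes RNA and footprints were lower together, with medians of -1.08 and -1.11. RNA was called lower in 32 and footprints in 27 of 37, against 22.4% and 5.71% of all genes. None was called in efficiency, where 3 were higher and 2 lower at the unadjusted p (median 0.19, or -0.08 with the shallowest footprint library of each group left out). Slc7a3, an amino acid transporter of that list, had 0 footprint counts in knockdown libraries and 16 in control libraries, beside 47 RNA counts in knockdown libraries and 80 in control libraries.

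In the integrin and hemidesmosome lists RNA and footprints were higher together. In 33 genes of integrins and focal adhesion the medians were 0.54 for RNA and 0.48 for footprints, with RNA called higher in 23 and footprints in 17, and 1 lower call in efficiency (Lpp). In 19 genes of the hemidesmosome and basement membrane they were 0.60 and 0.66, with 16 and 13 called higher and no call in efficiency. Of all tested genes 22.2% were called higher in RNA and 7.37% in footprints. Plec, the large linker between keratin filaments and hemidesmosomes, had 1970, 2636 and 2117 CPM of footprints in knockdown libraries, against 458, 528 and 650 CPM in control libraries. Plec RNA was 378, 481 and 396 CPM in knockdown libraries and 135, 125 and 197 CPM in control libraries. Both assays stood apart, and the efficiency change of 0.58 ± 0.23 did not pass (adjusted p = 0.292). Median efficiency changes of these lists were 0.00 and -0.02 and took the other sign in 21 and 8 of 25 alternatives. The median over all tested genes moved as well, from -0.0904 without a filter to 0.0639 with the span trend removed. Secreted matrix proteins and proteases held 1 higher call (Timp2) among 30, and the 18 keratins and 27 cornified envelope genes held none.

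The list of Argonaute, deadenylation and 3' UTR regulators, which holds Msi2, had 9 lower and 2 higher of 52 at the unadjusted p and no call. Its median was -0.20 for efficiency, 0.44 for RNA and 0.12 for footprints, with RNA called higher in 28 (22.2% of all genes) and footprints in 4 (7.37% of all genes). Cnot6, a deadenylase of the CCR4-NOT complex, had 95.0, 111 and 96.7 CPM of RNA in knockdown libraries, against 59.3, 56.2 and 83.5 CPM in control libraries, with an efficiency change of -1.02 ± 0.28 (adjusted p = 0.133). In the Notch pathway 19 of 23 genes were negative, with a median of -0.14 and 2 lower and 0 higher at the unadjusted p. In immediate early and AP-1 genes 20 of 27 were negative, with a median of -0.23 and 4 lower and 0 higher at the unadjusted p. Klf4, a transcription factor of epidermal differentiation, differed by -0.61 ± 0.20 (adjusted p = 0.179).

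Musashi targets named in the literature held no call among 23 tested, 3 lower and 0 higher at the unadjusted p, and a median of -0.10. That median was 0.01 with the span trend removed and -0.315 without the third control RNA library. Over all tested genes the median was 0.06 and -0.08 in the same fits. Jag1, a Notch ligand, rose in both assays, by 1.18 in RNA (adjusted p = 1.22e-06) and 0.56 in footprints (adjusted p = 0.0222), with an efficiency change of -0.62 ± 0.23 (adjusted p = 0.256). Numb, the Notch inhibitor, had -0.64 ± 0.31 (adjusted p = 0.403).

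**Figure D4:**
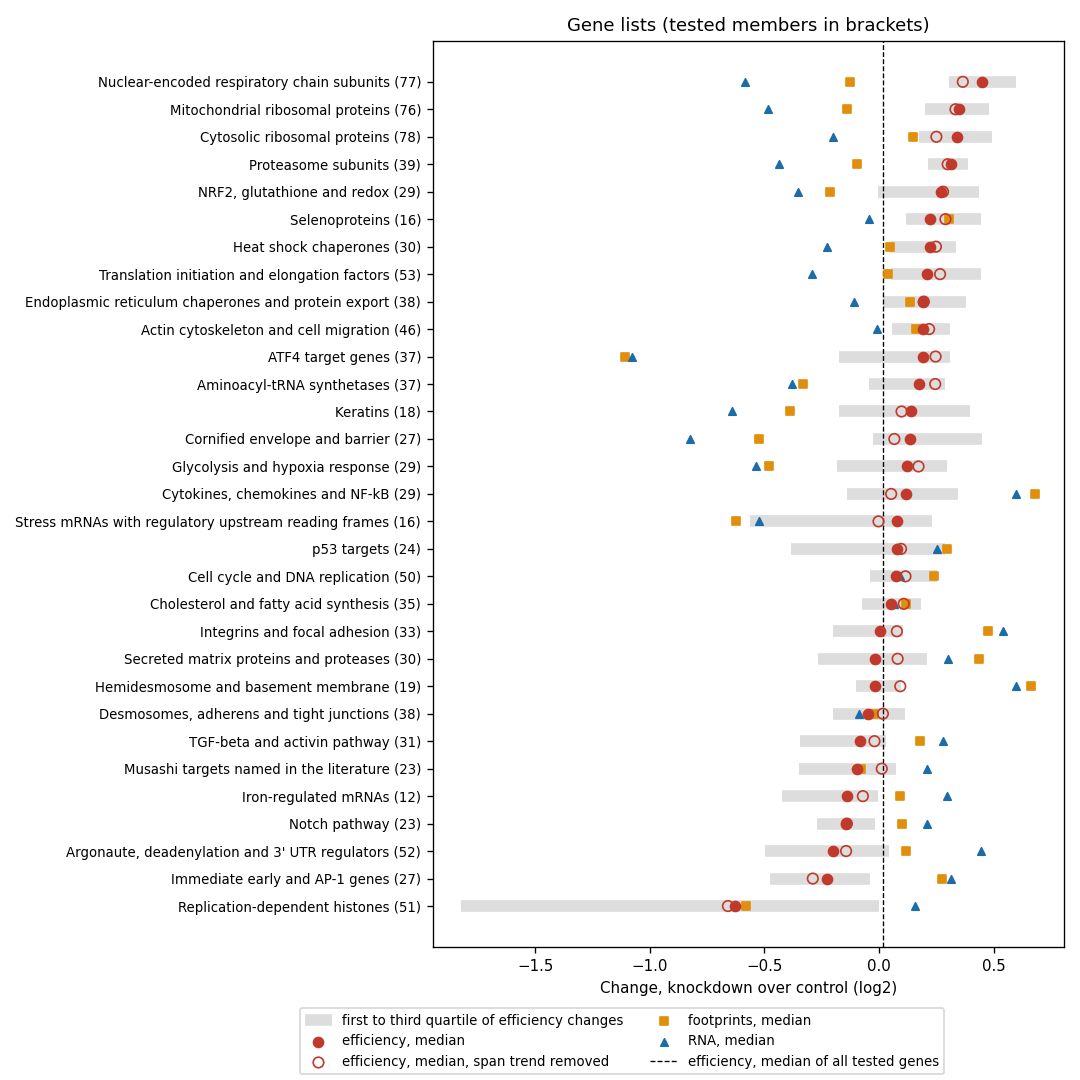
Median log2 change, knockdown over control, of efficiency (red), footprints (orange) and RNA (blue) in each gene list, with the range from the first to the third quartile of the efficiency changes in grey, the median after removal of the trend with gene span as an open circle, and the median of all tested genes dashed. Respiratory chain subunits stand highest at 0.45 and histones, whose RNA counts are few, at -0.63, while the integrin and hemidesmosome lists have RNA and footprints to the right and efficiency near 0.

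The remaining lists gave no call in either direction. Median efficiency changes were 0.19 in 46 genes of the actin cytoskeleton and cell migration, 0.12 in 29 genes of glycolysis and hypoxia, 0.12 in 29 cytokine, chemokine and NF-kB genes, 0.07 in 50 cell cycle genes, 0.05 in 35 genes of cholesterol and fatty acid synthesis and 0.08 in 24 p53 targets. They were -0.05 in 38 genes of desmosomes, adherens and tight junctions, whose medians were -0.09 for RNA and -0.02 for footprints, -0.08 in 31 genes of the TGF-beta and activin pathway, -0.14 in 12 iron-regulated genes and 0.08 in 16 stress genes with regulatory upstream reading frames. The median took the other sign in 13 of 25 alternatives for the stress genes, 7 for the p53 targets, 7 for cholesterol and fatty acid synthesis, 5 for the cell cycle, 3 for the junctions and 1 for the cytokine list. Between alternatives the median over all tested genes itself ran from -0.0904 to 0.0639. Fth1, the ferritin heavy chain, had RNA of 5054, 6420 and 6287 CPM in knockdown libraries, against 2967, 3310 and 3949 CPM in control libraries, with overlapping footprints and an efficiency change of -0.64 ± 0.25 (adjusted p = 0.3). Tjp1, a scaffold of tight junctions, was higher in RNA by 0.73 (adjusted p = 1.45e-05) with footprints at 0.09 and an efficiency change of -0.65 ± 0.18 (adjusted p = 0.135). Cfl1, the actin-severing protein cofilin, differed by 0.61 ± 0.20 (adjusted p = 0.192).

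Binding by Msi2 was set beside efficiency, since the study asked which RNAs the protein acts on. Of the tested genes, 1146 (10.6%) have a peak in the deposited 3' UTR list. Of these 1 was called higher (0.0873%) and 4 lower (0.349%), against 10 (0.106%) and 4 (0.0426%) of the 9393 tested genes in neither peak list. The median efficiency change was 0.02 in both sets. The 4 lower genes are Mapk6, Lpp, Zfp266 and Fam199x, and the higher one is Timp2. Rpl23, Eef1b2 and 1500012F01Rik, all called higher, are in neither of these sets. They have no peak in the 3' UTR list, but a peak of the other deposited list overlaps their span, with strand not considered. Over all 9675 tested genes without a 3' UTR peak, 13 (0.134%) were called higher and 4 (0.0413%) lower. These are small counts, with no test of their own, and their balance changed with the method. Among genes with a peak, 14 were higher and 13 lower with DESeq2, of 61 and 38 over all tested genes. Voom gave 14 and 8 of 68 and 18, removal of the span trend 7 and 4 of 29 and 12, and no filter 5 and 24 of 46 and 78. RLE factors gave 1 and 7 of 11 and 13, and upper-quartile factors 0 and 7 of 5 and 13. A filter of 10 CPM in 3 libraries gave 0 and 6 of 3 and 11, and a filter passed within each assay 0 and 5 of 2 and 9. Mapk6 has 4 peaks, the highest of which had a height of 51, at chromosome 9, 75387297 to 75387497 on the minus strand. Lpp has 6 peaks, with the highest, of 28, at chromosome 16, 24983901 to 24984077 on the plus strand. Zfp266 has 2 peaks of heights 16 and 11, Timp2 2 peaks of 22 and 12, and Fam199x 1 peak of 12, beside a smallest deposited height of 10. Peak height is the authors' value, summed over the CLIP libraries.

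Efficiency changes moved with the genomic span of a gene. With genes split into 5 equal groups from the shortest to the longest span, median efficiency changes were 0.158, 0.0769, 0.0256, -0.0363 and -0.119. RNA medians ran the other way, at -0.21, -0.0777, -0.0196, 0.0783 and 0.233, and footprint medians were -0.0591, -0.0245, -0.0281, 0.0396 and 0.0808. Spearman's rho with span was -0.215 for efficiency, 0.248 for RNA and 0.0938 for footprints over 10787 genes, which share libraries. Median span was 10686.5 bases in the 14 higher and 26250.5 bases in the 8 lower genes, against 23772 in all tested genes. When each library's trend with span was removed, 29 genes were called higher and 12 lower, with 20 of the 22 among them. Medians were then 0.37 for the respiratory chain, 0.33 for mitochondrial ribosomal proteins, 0.30 for the proteasome and 0.25 for cytosolic ribosomal proteins, against 0.06 for all genes. Beyond that fit, the part of span in the results was not tested.

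**Figure D5:**
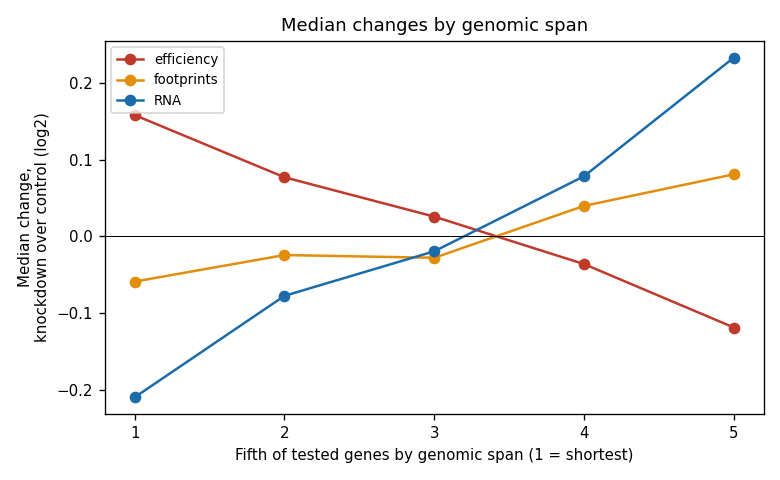
Median log2 change, knockdown over control, of efficiency, footprints and RNA in 5 equal groups of the tested genes by genomic span, from the shortest to the longest. Efficiency runs from 0.158 down to -0.119 while RNA runs from -0.21 up to 0.233, and the footprint medians span a narrower range.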

How the data were processed

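For 6 footprint and 6 RNA libraries the authors deposited whole-number counts of reads per gene over coding sequence. The submitters' processing notes name TopHat, HTSeq, DESeq and the build mm10. Lines of reads assigned to no gene (32.3 to 35.2% of an RNA library), of ambiguous assignment (0.175 to 0.228%) or aligned to several places stayed out of library sizes and tests. The peak lists hold a deposited signal, the total peak height over 5 HITS-CLIP libraries, from reads processed with cutadapt and Novoalign per the same notes. The peak caller is not given in the sources used here.

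All 12 libraries entered 1 edgeR 4.0.16 fit (R 4.3.3) with assay, knockdown and their interaction. Genes passed filterByExpr at 10 counts per library and 15 in total, libraries were scaled by TMM, and the robust quasi-likelihood test was adjusted by Benjamini-Hochberg over 10821 genes with a threshold of 0.05. CPM values are TMM-scaled. RNA and footprint changes come from the same fit, so the footprint change is the sum of the RNA change and the interaction. Fold changes are log2, with the SE of the fit. Alternatives used DESeq2 1.42.0, limma 3.58.1 (voom), other scaling, filters, replicate blocks, removal of the trend with span (loess, span 0.5) and libraries left out. Positions are from RefSeq GRCm38.p6, which matched 20446 symbols. The test was tested on simulated data. Those data held no RNA change and no effect shared by the genes of a library, so they cannot show how reliable the calls are.

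Members and gene lists were chosen with earlier results of these data known. Named genes are Msi2 and Msi1, the 12 largest called changes each way at an average of 3 or more on the log2 CPM scale, 4 per pattern and the 2 list members with the smallest p. Predicted genes are otherwise counted only. Lists are described by counts and medians, with no set test. Msi2 knockdown against control was compared with 3 libraries per group and assay.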

Additional observations from a re-analysis of the deposited data

Results flagged for a closer look

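The share of RNA reads that aligned to several places was 19.8, 24.5 and 21.2% in the knockdown libraries (21.8 ± 2.45%, SD, n = 3), against 13.4, 14.9 and 17.4% in the control libraries (15.2 ± 2.01%). It stands out because these reads lie outside the gene counts that every comparison used, and all 3 knockdown libraries are above all 3 control libraries. The footprint table used here holds no such line. The difference was not tested, nor was its part in the values of genes with near-identical copies.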

How the results depend on the processing

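The signs of the 22 called genes held in all 25 alternatives, which share libraries with the main fit, while the counts did not. A gene's efficiency change had a median SE of 0.28, and the smallest footprint library has 512256 counts. Against 14 higher and 8 lower genes (10 buffered, 6 opposite, 6 footprints alone, 0 intensified, 0 ratio alone; 1 higher and 4 lower with a 3' UTR peak), the cause of each difference below was not tested unless the alternative's own construction shows it. DESeq2 called 61 higher and 38 lower (63 buffered, 10 opposite, 24 footprints alone, 2 intensified; 14 higher and 13 lower with a peak). Voom called 68 and 18 (46, 18, 20 and 2; 14 and 8), with 2338 footprint changes against 1415. RLE factors gave 13 lower (7 with a peak), and upper-quartile factors 5 higher and 13 lower (0 and 7 with a peak). Without a filter 46 and 78 were called (74, 17, 26 and 7; 5 and 24). A filter of 10 CPM in 3 libraries left 3 higher (6 buffered; 0 higher with a peak), and a filter passed within each assay 2 higher (5 buffered, 3 opposite, 3 footprints alone; 0 higher with a peak). Requiring a log2 change of at least 1 left 7 higher (3 footprints alone; 0 higher with a peak). Removal of the span trend gave 29 higher (17 buffered, 10 opposite, 12 footprints alone, 2 intensified; 7 higher with a peak). With the assay filter added to it, chosen after seeing the data, 13 were lower (2 intensified; 3 higher with a peak). Dropping each group's smallest footprint library gave 7 higher (2 buffered; 0 higher and 2 lower with a peak). Peaks with a height of at least 20 left 2 lower genes.

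Leaving out each library in turn gave 0 to 94 higher and 0 to 149 lower genes (buffered 0 to 189, opposite 0 to 21, footprints alone 0 to 30, intensified 0 to 3; with a peak 0 to 11 higher and 0 to 41 lower), and 798 to 1588 footprint changes. A replicate block within each assay left 1 higher and 2 lower genes (0 buffered, 0 opposite, 3 footprints alone; 0 higher and 1 lower with a peak). A block joining the RNA and footprint library of a group and number gave 246 higher and 107 lower (247 buffered, 34 opposite, 58 footprints alone, 9 intensified, 5 ratio alone; 44 higher and 35 lower with a peak), the 22 genes among them. Deviations of same-numbered libraries correlated at 0.0399 to 0.0961 between footprint groups, -0.474 to 0.203 between RNA groups, 0.0915 to 0.321 between assays in knockdown cells and 0.244 to 0.311 in control cells. Between assays every such value was positive, while between RNA groups some were negative. The labels state no pairing, and the numbers were not taken to pair the libraries. In 3, 1, 3 and 3 of 3 cases a library correlated best with its own number, a hint from the data and not the design.

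Among 84 named genes, 1708 alternative values kept direction and side of the threshold, 259 lost and 95 gained a call, and 17 changed sign. The sign changes were in Acta2, with 0.03 against -0.0388 (DESeq2), -0.0386 (voom), -0.0426 (no filter), -0.0250 (RLE), -0.0461 (upper quartile), -0.0691 (10 CPM), -0.0653 (assay filter), -0.0021 (joining block), -0.0155 (span trend with assay filter), -0.0845 (shallowest libraries out) and -0.46 to 0.29 without single libraries, and in Cd68, with -0.85 to 0.12 without single libraries.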
